A study of Homo sapiens with 12 samples.

Results

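The genes described here are ID1, ID2, ID3 and ID4, the 4 inhibitors of DNA binding, chosen by name from the 58575 genes with a usable count row in an RNA-Seq study of human induced pluripotent stem cells (iPSCs). All libraries came from 201B7, an established iPSC line, harvested on Day 5, and no genetic change or selection distinguished the groups. Cond 1 was the control in StemFit medium, Cond 2 (low nutrient) received StemFit that had been heated for 30 min at 56 °C, Cond 3 (differentiation) received DMEM with 10% FBS, and Cond 4 (physical stimulus) was pipetted 20 times at passaging and then grown as the control. The study places the heated medium from Day 2 and the stimulation by FBS on Day 4, so the time of exposure differed between these media. Each condition had 3 libraries, 12 in all. One well of each condition shared a plate. The study calls the replicates technical in its results, while its methods describe the whole arrangement as run 3 times. The level of replication is thus not settled, and p-values measure the spread between wells of 1 line. RNA was measured in bulk, in which fewer cells of a type and less RNA per cell cannot be told apart. Of the 4 members, ID1, ID2 and ID4 had enough reads to be compared, and ID3 did not.

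ID proteins carry a helix-loop-helix dimerization domain but no basic region, so they cannot bind DNA. They pair with the E proteins (TCF3, TCF4 and TCF12), the common partners of the tissue-restricted basic helix-loop-helix (bHLH) activators, and keep them from E-box sites. In pluripotent cells the ID genes are classical direct targets of bone morphogenetic protein (BMP) signals: ligands act through receptors that phosphorylate SMAD1, SMAD5 and SMAD9, which enter the nucleus with SMAD4. The BMP branch is known to oppose neural differentiation, and ID genes are among its mediators.

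ID1 (ENSG00000125968) lies at chr20:31605283-31606515 on the forward strand of GRCh38, ID2 (ENSG00000115738) at chr2:8678845-8684461 on the forward strand, ID3 (ENSG00000117318) at chr1:23557926-23559501 on the reverse strand and ID4 (ENSG00000172201) at chr6:19837370-19842197 on the forward strand. All 4 had an entry in the promoter sequences of RefSeq (GRCh38.p14). The stretches before the start of ID1 and ID4 are shown because these genes had the highest level and the highest fold increase of the members with enough reads. The capitals mark TATAAA and CCAAT, each on either strand. The ID1 stretch, chr20:31605127-31605282, covers the part outside annotated exons, from 162 to 7 bases before the RefSeq start, and that of ID4, chr6:19837120-19837369, the 250 bases before its start.
ID1: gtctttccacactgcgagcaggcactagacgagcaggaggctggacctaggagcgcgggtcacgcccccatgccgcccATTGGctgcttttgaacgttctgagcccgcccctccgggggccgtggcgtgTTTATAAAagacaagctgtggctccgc
ID4: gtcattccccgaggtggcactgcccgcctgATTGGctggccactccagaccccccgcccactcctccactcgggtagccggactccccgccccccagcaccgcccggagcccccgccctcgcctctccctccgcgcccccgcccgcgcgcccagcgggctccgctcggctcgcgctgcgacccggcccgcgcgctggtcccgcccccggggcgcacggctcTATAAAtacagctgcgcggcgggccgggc
TATAAA begins 31 bases before the start in ID1, where it overlaps a copy on the other strand, and 29 bases before it in ID4. It occurred on either strand in 10.7% of 35116 RefSeq promoters of 250 bases, and CCAAT in 32.0%. The window before ID3 held neither, and that of ID2 held CCAAT 3 times and no TATAAA. The ID2 window is not shown because annotated ID2 exons cover all but 21 of its bases.

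The composite SMAD element, GGCGCC followed after 5 bases of any kind by GTCT, searched on both strands in the 5000 bases before each start, was found once before ID2 and once before ID3. These stretches are shown because they hold the letters by which BMP-regulated SMADs are known to bind, with the element in capitals.
ID2: cgcctGGCGCCagagaGTCTgctcc
ID3: accctGGCGCCaggctGTCTggggc
The ID2 element lies at chr2:8678942-8678956, 3114 bases before the RefSeq start and within an annotated exon of a longer ID2 transcript. The ID3 element lies at chr1:23562449-23562463 on the reverse strand, 2962 bases before the start. The same letters occurred in 0.476% of 35093 such windows. None was found before ID1 or ID4 in this exact form. Other letters or spacings were not searched, so the absence says nothing about other SMAD sites. A match is a description of the letters, and nothing about binding was measured.

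Total counts per library ranged from 16441148 to 21871503. Replicate libraries were not repeats of one another: chi-square per gene was 3.99 to 9.42 in the 12 pairs within a condition, and each library counts as 1 replicate. The 12 iPSC markers summed to 7084 to 9113 TPM (the TPM value of a gene is its level per transcript length, on a common total) over all libraries, and none of them was at or under 3 counts in all libraries of a condition. Within this sum single markers changed. Of all genes tested, 10.8% were called higher and 10.1% lower in Cond 2 against Cond 1, and 19.5% and 18.8% in Cond 3. In Cond 2, 4 of the 12 rose and 5 fell, among them TDGF1 (log2 fold change -1.50, adjusted p = 4.34e-10 in edgeR), the pluripotency factor NANOG (-1.09, adjusted p = 6.43e-10 in edgeR) and L1TD1 (-0.73, adjusted p = 2.08e-11 in edgeR). In Cond 3, 6 rose, among them ZFP42 (0.46), and 3 fell, with NANOG at -2.16 (adjusted p = 1.4e-14 in edgeR) and TDGF1 at -0.94 (adjusted p = 2.58e-07 in edgeR). The part of these markers in the ID results was not tested. Of the markers POU5F1 was listed at a mean of only 1.07 TPM, and its level is not read here.

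Among ID1, ID2 and ID4, the members with enough reads, ID1 was the highest in every library. Its TPM was 794, 928 and 783 in the Cond 1 libraries, 1289, 1205 and 1072 in Cond 2, 614, 729 and 744 in Cond 3, and 780, 752 and 693 in Cond 4. The 3 Cond 2 libraries lay above all others. In Cond 1 ID1 ranked 122 from the highest among the 17549 genes whose mean TPM reached 1, and in Cond 2 it ranked 92 among 17503.

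ID2 was far lower in Cond 1 but showed wider changes. Its TPM was 32.5, 46.3 and 32.4 in Cond 1, 152, 109 and 93.7 in Cond 2, 86.4, 95.4 and 96.7 in Cond 3, and 34.5, 39.1 and 40.5 in Cond 4. All libraries of Cond 2 and Cond 3 were above those of Cond 1 and Cond 4, while the latter pair overlapped.

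ID4 was near ID2 in Cond 1 and reached the highest multiple of its control level. Its TPM was 32.9, 38.8 and 35.8 in Cond 1, 171, 151 and 127 in Cond 2, 56.2, 68.3 and 58.5 in Cond 3, and 45.5, 43.3 and 40.6 in Cond 4. The 4 conditions did not overlap in ID4. Counts behind these levels were 4552 to 8485 reads per library for ID1, 361 to 1704 for ID2 and 701 to 3353 for ID4.

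**Figure D1:**
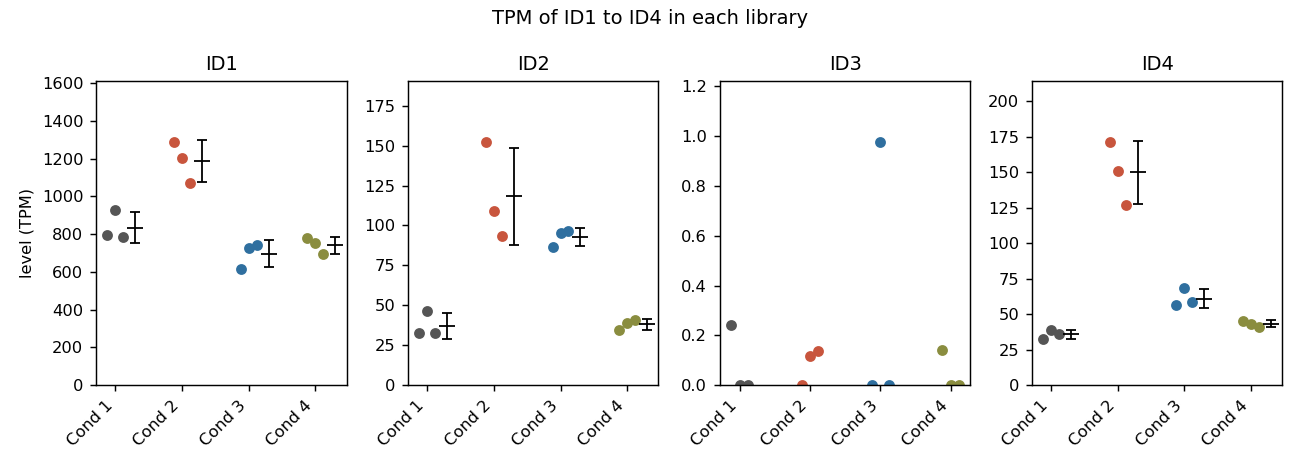
TPM of ID1 to ID4 (vertical axes, each on its own scale from 0) in the 3 libraries of each condition (points, replicates 1 to 3 from left to right), with the mean and SD (n = 3) as a black bar where a mean is given. The Cond 2 libraries are highest for ID1 and ID4, from 1072 and 127 TPM upwards, and no ID3 library reaches 1 TPM.

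ID3 was listed at or near 0 throughout, and no level is read from it. Its counts were 2, 0 and 0 reads in Cond 1, 0, 1 and 1 in Cond 2, 0, 8 and 0 in Cond 3, and 1, 0 and 0 in Cond 4. It failed the filter on low counts, so 3 of the 4 members entered the tests. The genes beside ID3 were also nearly without reads, an observation made after the values were seen. ID3 ended a run of 6 neighbouring protein-coding genes with a mean below 0.2 TPM (HNRNPR, ZNF436, TCEA3, ASAP3, E2F2 and ID3), at chr1:23303771-23559501 over 255.7 kb, with 43 reads in total over the 12 libraries. HNRNPR encodes an RNA-binding protein that cells use generally, and it was counted at no more than 5 reads in any library. The nearest genes outside the run were HTR1D at 19.4 TPM and RPL11, a ribosomal protein gene, at 1549 TPM. None of the 31-base words of ID3 transcripts occurred elsewhere on the main chromosomes or on the 261 alternate sequences of the assembly. Whether the reads of this stretch were lost before deposit was not tested. Some genes near the other members were counted. Examples are BCL2L1 at 60.2 TPM near ID1, KIDINS220 at 18.0 TPM near ID2 and E2F3 at 52.9 TPM near ID4. Other genes near ID1 also had few or no reads. COX4I2 was at 0.460 TPM, MCTS2 had 0 reads, and the neighbouring genes from DEFB115 to REM1 had at most 4 reads in any library.

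**Figure D2:**
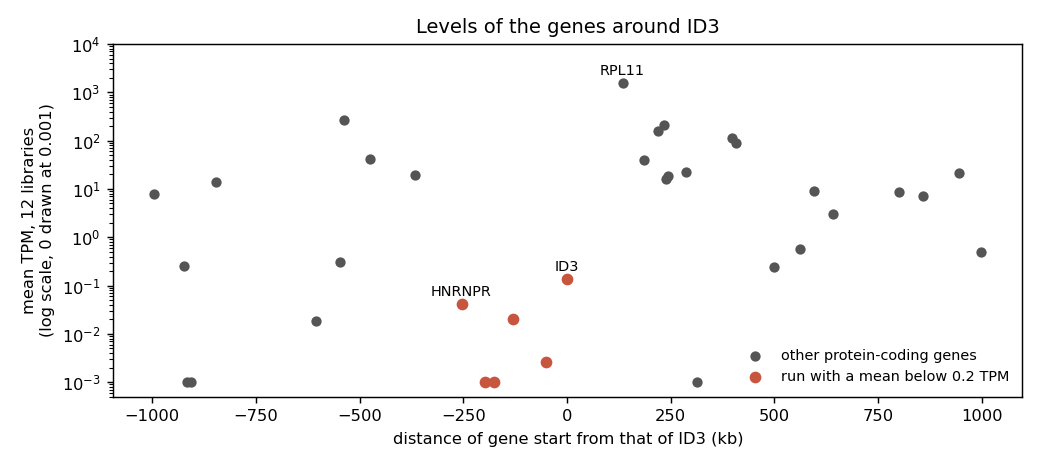
Mean TPM over 12 libraries (log axis, 0 drawn at 0.001) of protein-coding genes within 1 Mb of ID3, by the distance of their start from that of ID3 in kb. The 6 genes of the run (red) lie below 0.2 TPM, next to RPL11 at 1549 TPM.

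Means below are given ± SD over the 3 libraries of a condition, and SE is the standard error of a log2 fold change. In Cond 2 against Cond 1, which asks what the heated medium changed, all 3 tested members rose. ID4 rose to 150 ± 22.2 TPM from 35.8 ± 2.99, with a log2 fold change of 1.98 (SE 0.102, 95% interval 1.77 to 2.19, adjusted p = 1.96e-12 in the edgeR quasi-likelihood test). ID2 rose to 118 ± 30.4 TPM from 37.1 ± 8.02, with a log2 fold change of 1.60 (SE 0.150, 95% interval 1.29 to 1.91, adjusted p = 3.11e-08 in edgeR). ID1 rose to 1189 ± 110 TPM from 835 ± 81.0, with a log2 fold change of 0.43 (SE 0.081, 95% interval 0.26 to 0.59, adjusted p = 0.000436 in edgeR). Of 17747 genes tested, 10.8% were called higher and 10.1% lower at an adjusted p below 0.05, and 1.84% were called higher with a fold change above 2, as ID2 and ID4 were. Among all tested genes ID4 ranked 135 and ID2 ranked 216 by log2 fold change from the highest, and ID1 ranked 2015.

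The Cond 2 libraries differed among themselves in the same way for all 3 members: replicate 1 held the highest and replicate 3 the lowest TPM of ID1, ID2 and ID4. Markers of other cell types also changed in Cond 2, not all in the same direction or replicate order. The 10 neuroectoderm markers summed to 21.9 to 36.5 TPM in Cond 1 and to 765, 585 and 472 TPM in replicates 1, 2 and 3 of Cond 2, and 6 of the 8 tested rose, SIX3 (log2 fold change 5.94), LHX5 (4.97) and RAX (4.29), factors of the forebrain and eye field, by the most. The 12 surface ectoderm and amnion markers summed to 50.5 to 56.8 TPM in Cond 1 and to 113, 92.5 and 78.4 TPM in Cond 2, where 7 of the 8 tested rose and GABRP fell, while TFAP2B, KRT14 and TP63 had at most 3 counts in every library. The 10 mesendoderm markers summed to 53.1 to 68.8 TPM in Cond 1 and to 22.7, 25.3 and 29.0 TPM in replicates 1, 2 and 3 of Cond 2. This sum was made up largely of KDR, a receptor of early mesoderm, at a mean of 44.3 TPM over all libraries. Of 3 tested in Cond 2, KDR fell, while TBXT (log2 fold change 2.15, mean 0.479 TPM) and MIXL1 (0.47) were not called. FOXA2 and GATA4 had at most 3 counts in every library. The lower sum is thus a change of KDR and not of the list. The part of these markers in the ID results was not tested.

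In Cond 3 against Cond 1, which asks what the differentiation medium changed, ID2 and ID4 rose and ID1 fell. ID2 reached 92.9 ± 5.60 TPM, a log2 fold change of 1.30 (SE 0.150, 95% interval 0.99 to 1.61, adjusted p = 3.54e-07 in edgeR). ID4 reached 61.0 ± 6.45 TPM, a log2 fold change of 0.74 (SE 0.103, 95% interval 0.53 to 0.95, adjusted p = 4.97e-06 in edgeR). ID1 dropped to 696 ± 71.2 TPM, a log2 fold change of -0.29 (SE 0.082, 95% interval -0.46 to -0.12, adjusted p = 0.00712 in edgeR). Over all genes 19.5% were called higher and 18.8% lower, and 4.85% were called higher with a fold change above 2, as ID2 was. The ID1 decrease rested on single libraries: without Cond 1 replicate 2 its log2 fold change was -0.21 (adjusted p = 0.0557 in edgeR), and without Cond 3 replicate 1 it was -0.20 (adjusted p = 0.0667 in edgeR). In Cond 3 the neuroectoderm markers summed to 59.4 to 78.7 TPM, with LHX5 and HESX1 higher and SIX6 lower among 8 tested. The surface ectoderm and amnion markers summed to 53.0 to 59.8 TPM, with 4 of 8 tested higher, among them TFAP2A (log2 fold change 2.28) and KRT7 (0.45), and GABRP lower (-1.38). The mesendoderm markers, whose sum was made up largely of KDR, came to 34.4 to 46.4 TPM, against 53.1 to 68.8 in Cond 1. KDR was lower (-0.67) and TBXT higher, at 11 to 20 reads per library against 0 to 3, and MIXL1 was not called. The part of these markers in the ID results was not tested.

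In Cond 4 against Cond 1, which asks what repeated pipetting changed, no member passed the test. The log2 fold change was 0.26 for ID4 (95% interval 0.04 to 0.47, adjusted p = 0.79 in edgeR, unadjusted 0.0235), -0.18 for ID1 (95% interval -0.35 to -0.01, adjusted p = 0.79 in edgeR, unadjusted 0.0352) and 0.03 for ID2 (95% interval -0.29 to 0.36, adjusted p = 0.988 in edgeR). The TPM of ID4 and of ID1 did not overlap between the 2 conditions, with the 3 libraries of Cond 4 above those of Cond 1 for ID4 and below them for ID1. Over all genes edgeR called 5 (PCBP1, H1FX, TXNDC5, LINC01578 and EEF1A1P6), or 0.0282%, in either direction, with 1102 at an unadjusted p below 0.05, and DESeq2 called 12.

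Set directly against each other, Cond 3 was below Cond 2 in ID4 (log2 fold change -1.24, SE 0.098, adjusted p = 1.20e-09 in edgeR) and in ID1 (-0.72, SE 0.082, adjusted p = 3.19e-07 in edgeR). ID2 did not pass the test, at a log2 fold change of -0.30 (95% interval -0.59 to -0.01, adjusted p = 0.102 in edgeR). Of all genes 19.0% were higher and 19.2% lower in Cond 3 than in Cond 2. The time of exposure differed along with the medium, and their parts in these differences cannot be told apart. Without Cond 2 replicate 3 the ID2 difference was -0.45 (adjusted p = 0.0113 in edgeR), and without Cond 2 replicate 1, the highest ID2 library, it was -0.05.

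**Figure D3:**
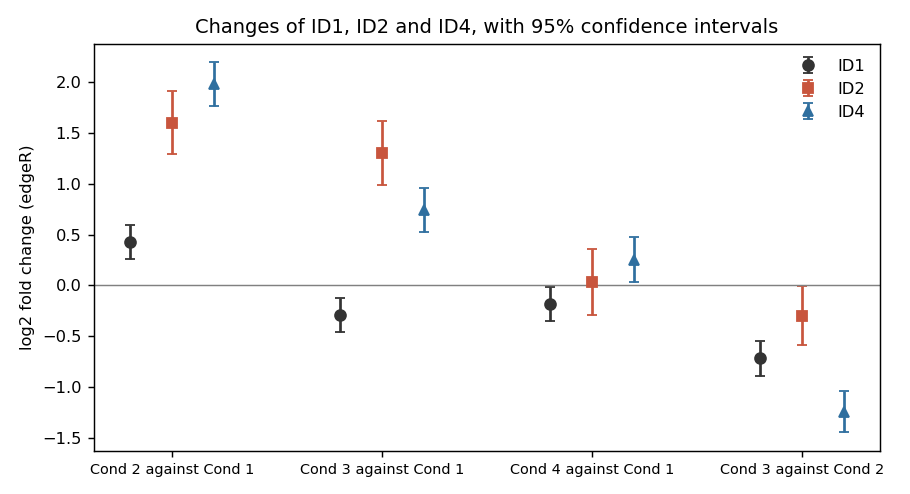
Log2 fold change from edgeR (vertical axis) of ID1, ID2 and ID4 in the 4 comparisons, with 95% confidence intervals as bars. All 3 members are above 0 in Cond 2, ID1 lies on the other side of 0 from ID2 and ID4 in Cond 3, and ID4 shows the widest gap between Cond 3 and Cond 2, at -1.24.

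From lowest to highest mean TPM, the order of conditions was Cond 3, Cond 4, Cond 1 and Cond 2 for ID1, Cond 1, Cond 4, Cond 3 and Cond 2 for ID2, and the latter order again for ID4. The neighbours Cond 3 and Cond 4 overlapped in ID1 (exact two-sided permutation p = 0.5). In ID2 both Cond 1 and Cond 4 (exact permutation p = 0.8) and Cond 3 and Cond 2 (exact permutation p = 0.3) overlapped. All other neighbours were separated at p = 0.1, the smallest value this exact permutation test allows with 3 libraries against 3.

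The summed TPM of the 4 genes was 908 ± 91.5 in Cond 1, 1457 ± 160 in Cond 2, 850 ± 80.9 in Cond 3 and 823 ± 44.3 in Cond 4, and only Cond 2 did not overlap Cond 1. The Cond 3 total was 93.6% of the control in TPM but 102.6% in CPM (counts scaled to a common total, with no division by length), so its direction depends on the scale. ID3, whose level is not read, entered the sum at or near 0, so the shares are in effect those among ID1, ID2 and ID4. ID1 made up 92.0% ± 0.388 of the summed TPM in Cond 1 and 90.1% ± 0.589 in Cond 4, against 81.7% ± 1.57 in Cond 2 and 81.8% ± 0.822 in Cond 3. In TPM, which divides by length, ID4 held the larger share of the remainder in Cond 2, at 10.3% ± 0.405 against 8.05% ± 1.22 for ID2, and ID2 in Cond 3, at 10.95% ± 0.413 against 7.19% ± 0.603 for ID4. In CPM, which grows with gene length, ID4 was above ID2 in every Cond 3 library, at 60.9 to 75.5 against 53.6 to 61.2.

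The ratio of ID4 to ID2 in TPM was also taken within each library. It was 1.01, 0.838 and 1.10 in Cond 1, 1.12, 1.39 and 1.35 in Cond 2, 0.650, 0.716 and 0.605 in Cond 3, and 1.32, 1.11 and 1.00 in Cond 4. The libraries of Cond 2 were above and those of Cond 3 below all libraries of Cond 1, and Cond 4 overlapped Cond 1. ID1 was 23.3 ± 1.26 times ID4 in Cond 1 and 7.98 ± 0.460 times ID4 in Cond 2.

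Some limits of counting touch single members. Of the 31-base words of ID2 transcripts, 23.2% occurred elsewhere on the main chromosomes, against 0.952% for ID4 and none for ID1, and how reads with several matches were counted is not stated. The processed ID2 pseudogene ID2B (ENSG00000237456) was counted at no more than 1 read in any library. ID2-AS1, a long non-coding RNA on the other strand, shares 145 exon bases with ID2 and had 18 to 62 reads per library. It was higher in Cond 2 (log2 fold change 1.06, SE 0.353, adjusted p = 0.0344 in edgeR), and since the strand setting of the counting is not stated, its reads and those of ID2 may not be separate. LNC-LBCS (ENSG00000228412), on the other strand over ID4, shares no exon bases with it and had at most 45 reads in a library.

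The E proteins, which the ID proteins bind, had log2 fold changes between -0.28 and 0.25 in Cond 2 and Cond 3 against Cond 1. TCF3, which encodes E12 and E47, was the most abundant, at 284 ± 1.23 TPM in Cond 1, and rose in Cond 2 by a log2 fold change of 0.25 (SE 0.051, adjusted p = 0.000859 in edgeR) and in Cond 3 by 0.21 (SE 0.051, adjusted p = 0.00182 in edgeR). TCF4 rose in Cond 2 by 0.20 on the log2 scale (adjusted p = 0.0157 in edgeR), and its value in Cond 3 was -0.08 (adjusted p = 0.339 in edgeR). TCF12 had a value of 0.09 in Cond 2 (adjusted p = 0.292 in edgeR) and fell by 0.28 on the log2 scale in Cond 3 (adjusted p = 0.000562 in edgeR). None of the 3 passed the test in Cond 4.

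Set against the summed TPM of the 3 E proteins, the summed ID TPM gave a ratio of 2.48, 2.90 and 2.44 in the Cond 1 libraries, 3.85, 3.25 and 3.02 in Cond 2, 1.79, 2.42 and 2.34 in Cond 3, and 2.36, 2.44 and 2.15 in Cond 4. The Cond 2 libraries lay above those of Cond 1, and Cond 4 overlapped Cond 1. The Cond 3 libraries lay below Cond 1 by a narrow margin, at most 2.420 against at least 2.436. ID3, whose level is not read, is in effect left out of the ratio. This is a ratio of RNA levels, and the ratio of the proteins was not measured.

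**Figure D4:**
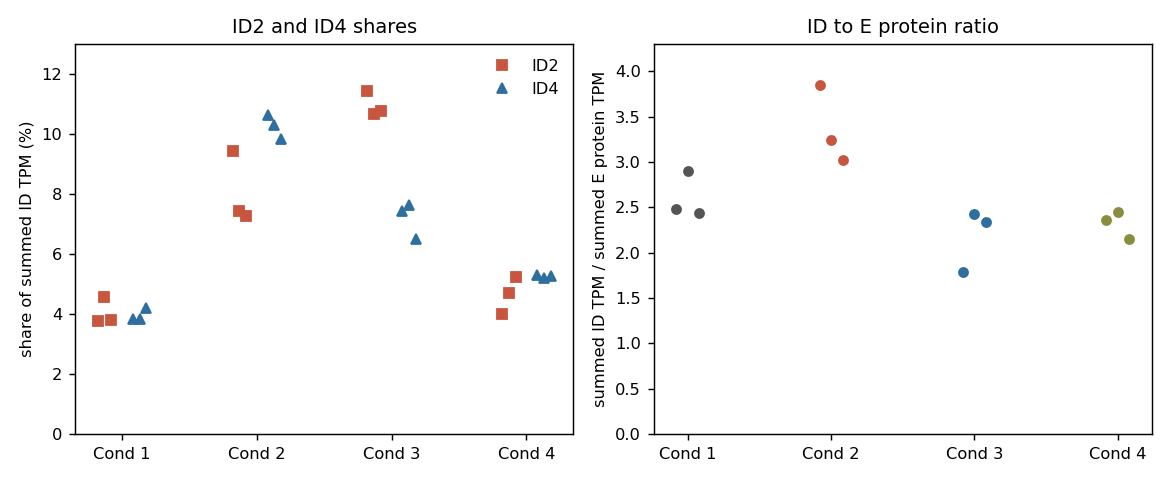
Left, share of ID2 (red squares) and ID4 (blue triangles) in the summed ID TPM of each library, in percent. Right, summed TPM of ID1 to ID4 divided by that of TCF3, TCF4 and TCF12 in each library; ID4 has the larger share in Cond 2 and ID2 in Cond 3, and the ratio is highest in Cond 2, from 3.02 to 3.85.

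In the gene lists described next, counts stand against all genes tested, of which 10.8% were called higher and 10.1% lower in Cond 2, and 19.5% and 18.8% in Cond 3, each against Cond 1. Of 12 BMP ligands, 7 were tested. In Cond 2, 3 rose and none fell (median log2 fold change 0.74, against 0.00018 over all genes): BMP4 by 1.72 (SE 0.196, adjusted p = 5.93e-07 in edgeR), BMP7 by 0.93 (adjusted p = 3.45e-06 in edgeR) and BMP2 by 0.74 (adjusted p = 0.00021 in edgeR). In Cond 3, 2 rose and 1 fell, and BMP2 led with a log2 fold change of 1.71 (SE 0.129, adjusted p = 5.81e-10 in edgeR), BMP4 rose by 0.84 and BMP7 fell by 0.36 on that scale. BMP4 TPM was 5.98, 4.31 and 7.11 in Cond 1 and 24.03, 19.9 and 17.5 in Cond 2, with replicate 1 highest and replicate 3 lowest in Cond 2, as for the ID genes. BMP2 TPM was 12.95, 16.9 and 16.9 in Cond 2, lowest in replicate 1.

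Of 7 BMP receptors tested, 1 rose (ACVR2B, log2 fold change 0.26) and 1 fell (BMPR1A, -0.18) in Cond 2, and 1 rose (ACVRL1, 1.83) and 1 fell (BMPR2, -0.51) in Cond 3. These receptor counts are near the shares of all genes, and ACVRL1 had a mean of only 0.935 TPM over all libraries. Of the 4 SMADs that carry the signal, SMAD4 (0.32, adjusted p = 0.00159 in edgeR) and SMAD5 (0.26, adjusted p = 0.00267 in edgeR) rose in Cond 2 and SMAD9 (1.04, adjusted p = 0.0192 in edgeR) rose in Cond 3. Of 8 secreted or membrane antagonists tested, 3 rose and none fell in Cond 2, with FST, which encodes follistatin, at a log2 fold change of 1.38, NOG, which encodes noggin, at 1.44 and TWSG1 at 0.34. In Cond 3, 2 rose and 1 fell, with CHRD (chordin) at 1.21, FST at 0.89 and the pseudoreceptor BAMBI at -0.51, and these Cond 3 counts are near the shares of all genes.

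Other direct targets of BMP and SMAD1/5 rose in Cond 2 where they passed the test and went both ways in Cond 3. Of 11 tested among 13 listed, 8 rose and none fell in Cond 2, with a median log2 fold change of 2.00, against 10.8% of all genes called higher. They were SMAD6, SMAD7, MSX2, DLX3, DLX5, GATA2, GATA3 and TFAP2A. In Cond 3, 5 rose (SMAD6, DLX3, ATOH8, GATA2 and TFAP2A) and 2 fell (SMAD7 and MSX1), with a median of 0.25, against 19.5% and 18.8% of all genes called higher and lower. The inhibitory SMADs, which feed back on the pathway, were among them. SMAD7 TPM was 25.4, 22.5 and 20.9 in Cond 1, 58.9, 42.6 and 33.0 in Cond 2, 9.57, 15.2 and 11.1 in Cond 3, and 22.1, 22.4 and 20.0 in Cond 4. It thus rose in Cond 2 (log2 fold change 0.89, adjusted p = 0.000253 in edgeR) and fell in Cond 3 (-0.97, adjusted p = 0.000102 in edgeR), the direction of ID1 in both. SMAD6 rose in Cond 2 by 1.08 (adjusted p = 1.47e-05 in edgeR) and in Cond 3 by 0.44 (adjusted p = 0.0315 in edgeR), the direction of ID2 and ID4. DLX5, a homeobox gene of the early ectoderm, had 2, 0 and 0 reads in Cond 1, 232, 94 and 44 in Cond 2, none in Cond 3 and 2 in each Cond 4 library. Few reads also lay behind the Cond 3 calls of DLX3, at 0 to 22 per library against 0 in Cond 1, and MSX1, at 0 to 2 against 6 to 23. ATOH8 and GATA2 had means of only 0.246 and 0.763 TPM over all libraries. TFAP2A, GATA3, DLX5, DLX3 and GATA2 are also among the surface ectoderm markers. The lists were drawn up with results of these data known, so their counts are no independent evidence of a direction.

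**Figure D5:**
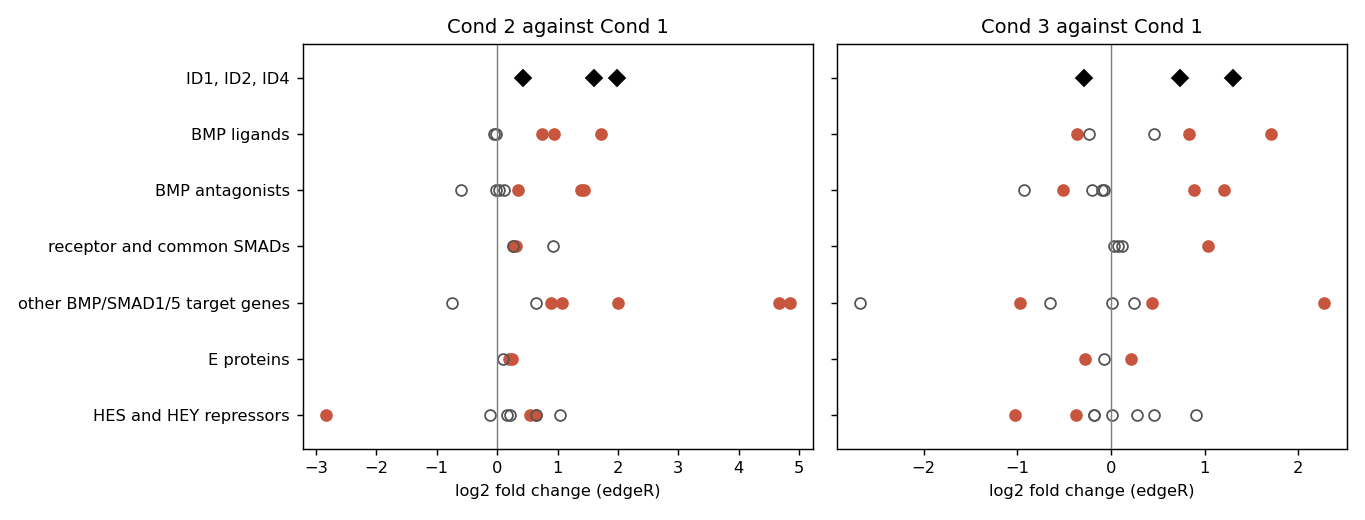
Log2 fold change from edgeR (horizontal axes, each panel on its own scale) of the tested members of 6 gene lists with a mean TPM of at least 1, in Cond 2 (left) and Cond 3 (right) against Cond 1. Filled red points passed an adjusted p below 0.05, open points did not, black diamonds are ID1, ID2 and ID4, all of which passed, and genes whose counts never exceeded 3 in 1 of the groups are not drawn. BMP target genes that passed lie to the right of 0 in Cond 2 and on both sides in Cond 3.

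Among regulators that act close to the ID genes, 2 of 8 rose and none fell in Cond 2, USP1, a deubiquitinase known to stabilize ID proteins (log2 fold change 0.38, adjusted p = 5e-05 in edgeR), and ATF3, a stress-responsive repressor (0.26, adjusted p = 0.0153 in edgeR). ATF3, known to act with SMAD3 as a repressor of ID1, fell in Cond 3 with a log2 fold change of -1.85 (SE 0.084, adjusted p = 1.13e-13 in edgeR), as did EGR1, an immediate early activator, with -1.08 (adjusted p = 0.000181 in edgeR). In Cond 3, 2 of the 8 rose, KLF6 with 0.27 and USP1 with 0.18. With 2 of 8 in each direction, Cond 3 was near the 19.5% and 18.8% of all genes.

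Of 37 tissue-restricted bHLH activators, 15 passed the filter on low counts, and none of them rose in Cond 2, where OLIG3 (log2 fold change -1.34, adjusted p = 0.00134 in edgeR) and TCF15 (-0.71, adjusted p = 0.00126 in edgeR) fell. In Cond 3 both rose, OLIG3, a factor of the dorsal neural tube, by 3.22 (SE 0.217, adjusted p = 8.95e-11 in edgeR) and TCF15, a mesodermal factor that ID proteins are known to hold back, by 0.49 (adjusted p = 0.00836 in edgeR), and ATOH8 also rose while NHLH1 and NHLH2 fell. The 2 of 15 lower in Cond 2, and the 3 higher and 2 lower in Cond 3, are near the shares of all genes or below them and are no result about the list. Of 9 HES and HEY repressors, bHLH factors largely under Notch, HES1, HES2 and HES3 rose and HEY2 fell in Cond 2, HEY2 with a log2 fold change of -2.84 (SE 0.220, adjusted p = 1.43e-09 in edgeR). In Cond 3 HES2 rose, with 2.51, and HEY2 fell, with -1.02, as did HES3, with -0.37. Of 6 ETS and PAX factors listed as ID partners, 2 were tested, with ETS1 lower in Cond 2 (log2 fold change -1.44) and ELK1 higher in Cond 3 (0.22). No member of any of these lists was called in Cond 4.

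The genes closest in pattern to each member were found by the root mean square difference of log2(TPM + 1), relative to the Cond 1 mean, over the 12 libraries and 15700 genes. For ID1 they were SLC44A2, a choline transporter (difference 0.131), STAT5B, a cytokine-activated transcription factor (0.136), and UCP2, a mitochondrial carrier (0.150). SLC44A2 was at 145% of its Cond 1 mean TPM in Cond 2 and 84.3% in Cond 3, next to 142% and 83.3% for ID1. For ID2 they were SOX21-AS1, a non-coding RNA (0.184), TRPC4, a cation channel (0.1997), and CBLN1, a secreted synaptic protein (0.207). For ID4 they were FZD5, a WNT receptor (0.208), NNAT, which encodes neuronatin (0.227), and DMBX1, a homeobox factor (0.237). FZD5 was at 411% of its Cond 1 mean TPM in Cond 2 and 154% in Cond 3, next to 418% and 170% for ID4. Within the family ID4 ranked 37 among the genes closest to ID2, at 0.387, and ID1 was far from both, with a difference of 0.989 from ID2 and 0.940 from ID4.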

How the data were processed

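RNA-Seq was measured in 12 libraries, 3 in each of 4 conditions. According to the methods and the submitters' processing notes, reads were trimmed (cutadapt 4.1, fastp 0.20.1), aligned to GRCh38 with HISAT2 2.1.0 and assigned to genes by featureCounts. The libraries were strand-specific and made from poly(A) RNA. The annotation release, strand setting and treatment of reads with several matches are not given in the sources used here. The authors deposited the read counts per gene, without normalization, and the deposited TPM values, which follow from these counts and gene lengths (largest relative deviation 1.79e-14 on recomputing). Of 58580 lines of counts, 5 held no whole gene row and were left out, and 2042 of the 60617 genes with TPM had no count row.

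TMM normalization and the quasi-likelihood F-test were run on the counts in edgeR 4.0.16 (R 4.3.3) in one fit over 12 libraries, without covariates, on 17747 genes that passed its filter on low counts. The study's own test was limma on another scale, used here as an alternative (limma 3.58.1), beside DESeq2 1.42.0. The Benjamini-Hochberg adjustment covered all genes tested, with a threshold of 0.05. Exact permutation tests on TPM were two-sided. The scripts were tested on simulated data. Counting error limits values below about 3 counts. Coordinates were taken from GENCODE 44, promoter sequences from RefSeq and figures were drawn with matplotlib.

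The members, gene lists and tests were chosen with earlier results of these data known. The naming rule took the 4 ID genes, their copies and overlapping genes, the E proteins, of each other list the called members with the 3 largest changes and a mean TPM of at least 1 in a comparison, and the 3 genes closest in pattern to each member. For Cond 3 against Cond 2 the list genes under this rule are not given in the text. Other genes of the lists, the genes beside a member, POU5F1 and the genes called in Cond 4 were named outside this rule, after their values were seen.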

Additional observations from a re-analysis of the deposited data

How the results depend on the processing

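The calls of ID2 and ID4 in Cond 2 and Cond 3 against Cond 1, and of ID1 and ID4 in Cond 3 against Cond 2, kept direction and threshold under every alternative run (DESeq2, upper-quartile scaling, all genes kept regardless of counts, limma on log2(TPM + 1) and log2(TPM + 0.1), the compared libraries alone, the replicate block and each replicate left out), as did ID1 in Cond 2. ID1 in Cond 3 lost its call with limma applied to every gene above 0 on the log2(TPM + 1) scale (-0.26, adjusted p = 0.115), and each replicate left out gave -0.34 to -0.20. ID2 in Cond 3 against Cond 2 was called without a filter on low counts (-0.30, adjusted p = 0.00487), with -0.45 to -0.050 when replicates were left out. ID2 in Cond 4 turned to -0.059, -0.048 and -0.016 without Cond 1 replicate 1, Cond 1 replicate 3 and Cond 4 replicate 3 (range -0.059 to 0.21). Genes called in Cond 4 numbered 12 with DESeq2, 52 without a filter, 8 with the 6 libraries alone, 3 with limma at either pseudocount and 8 with limma in all genes above 0. With CPM in place of TPM, the ID1 share was 82.4%, 63.7%, 65.9% and 78.4% in Cond 1 to Cond 4, the ratio to E proteins 0.473, 0.709, 0.455 and 0.428, and the summed ID level in Cond 3 102.6% of Cond 1. When replicates were left out, the summed level in Cond 4 was 87.9% to 96.2% of Cond 1, the latter without Cond 1 replicate 2. The causes were not tested. Replicate numbers did not mark pairs in the data: deviations of same-numbered libraries correlated at -0.0131 to 0.0379 over 18 pairs, none over 0.1. With the replicate block 3750, 6854, 5 and 6780 genes were called in Cond 2, Cond 3 and Cond 4 against Cond 1 and in Cond 3 against Cond 2, against 3701, 6811, 5 and 6777 without it, and no call of a member changed.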
